A study of Mus musculus with 8 samples.

Results

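The genes described here are 33 interferon-stimulated genes of mouse bone marrow plasma cells, out of 27179 genes in the count table. They were taken from a fixed list of symbols that was chosen with earlier results of these data known. The symbols were matched to the table without use of a measured value. All 33 were found, passed the filter on low counts and were tested. Plasma cells were sorted as Blimp1-GFP+ CD138+ cells from the bone marrow of C57BL/6 mice, and their RNA was sequenced. The groups were wild type in batch 1 (replicates 1 and 2), Blimp1-/- in batch 1 (replicates 1 and 2), wild type in batch 2 (replicates 3 and 4) and Xbp1-/- in batch 2 (replicates 1 and 2). Every group was sorted on the Blimp1-GFP reporter, and the deposited tables of batch 2, wild type and Xbp1-/- alike, are tagged CreER in their names, a Cre recombinase that is activated by ligands of the oestrogen receptor. Which cells carried it, what treatment was given and how Blimp1 was deleted are not given in the sources used here. In batch 1 the names read plus_minus and pos_neg for wild type and fl_minus for Blimp1-/- replicate 1. The name of Blimp1-/- replicate 2 starts with neg. In batch 2 the names also hold pos for wild type and fl for Xbp1-/-. The alleles meant by these tags are not explained, so wild type here is the name given by the sample titles. Each knockout was compared with the 2 wild-type libraries of its own batch.

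Type I interferons are secreted proteins that bind a receptor found on almost all cells and signal through the kinases Jak1 and Tyk2. The type I and type III receptors assemble the factor ISGF3, which contains Stat2 and Irf9 and turns on genes that detect viral nucleic acid, block viral replication, tag proteins and restrain the pathway itself. Blimp1, encoded by Prdm1, is a repressor of the interferon-beta promoter and the factor that drives plasma cell differentiation, while Xbp1 activates the secretory programme of plasma cells through the unfolded protein response.

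The 8 libraries held between 44012152 and 145411827 counts, of which immunoglobulin genes took 25.2% to 75.7%, with the lowest shares in Xbp1-/-. Levels are given in CPM, counts scaled to a common library size after correction by the trimmed mean of M-values (TMM), whose factors ran from 0.564 to 2.11. All 10 plasma cell markers listed were detected in every library: Sdc1, the gene for CD138, stood between 309 and 639 CPM and Jchain between 29069 and 112223 CPM in the 8 libraries. Their levels were not even across groups. In Blimp1-/- all 10 had estimates below 0 (median log2 fold change -0.53), and 0 passed the test. In Xbp1-/- 6 lay above 0 and 4 below (median 0.095), and 2 passed the test as lower and 0 as higher. Of all genes tested, 0.862% passed in Blimp1-/- and 7.7% in Xbp1-/-, with medians of -0.0061 and 0.082. Prdm1 did not pass the test in Blimp1-/- (log2 fold change -0.54, standard error 0.25, adjusted p = 0.401), nor did Xbp1 in Xbp1-/- (-0.85, standard error 0.25, adjusted p = 0.0939). Counts over a whole gene do not show the loss of some of its exons, so neither value checks the labels. In batch 2 the libraries of each group were far apart in 14 neutrophil, monocyte and macrophage markers, which summed to 30.7 and 631 CPM in wild-type replicates 3 and 4 and to 46.9 and 1494 CPM in Xbp1-/- replicates 1 and 2. The 4 libraries of batch 1 held 419 to 684 CPM, so 2 libraries lay below them, Xbp1-/- replicate 2 above, and wild-type replicate 4 within their range. Wild-type replicate 4 and Xbp1-/- replicate 2 are called the marker-rich pair below, wild-type replicate 3 and Xbp1-/- replicate 1 the marker-poor pair, and the calls among the 33 genes are given with and without each pair.

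Sequence around the start sites was available for 24 of the 33 genes, in 32 RefSeq windows of 300 bases on GRCm38.p6, each running from 250 bases before a start to 50 after it. Dhx58, Zbp1, Oas2, Mx1, Mx2, Usp18, Rtp4, Parp9 and Parp14 were not matched. A set of 3 motifs was searched on both strands. The first, GAAA and GAAA with any 2 bases between them, is the core of the interferon-stimulated response element (ISRE), GAAAGTG is a core of the sequence that Blimp1 binds, and TGACGTG is a core of the unfolded protein response element. The ISRE core was present for 11 of the 24 genes (45.8%), against 1079 of 27025 genes in the whole table (3.99%), and its longer form, with CT following, for 5 (20.8%, against 0.303%). GAAAGTG was present for 8 of the 24 (33.3%, against 5.52%), and in 3 of them it overlapped the ISRE core (12.5%, against 0.363%). TGACGTG was present for 2, Isg20 and Oasl2 (8.33%, against 2.22%). These matches are descriptions of letters in a window, not of binding. The windows below belong to the genes on which the results turn, Isg20, Sp110 and Stat2, followed by 3 textbook interferon-stimulated genes picked for their matches, Ifit1, Ifit3 and Isg15. Capitals mark matches to any of the 3 motifs, and each window is written on its gene's strand.
Isg20, chr7:78913515-78913814, plus strand, 2 matches to TGACGTG on the reverse strand: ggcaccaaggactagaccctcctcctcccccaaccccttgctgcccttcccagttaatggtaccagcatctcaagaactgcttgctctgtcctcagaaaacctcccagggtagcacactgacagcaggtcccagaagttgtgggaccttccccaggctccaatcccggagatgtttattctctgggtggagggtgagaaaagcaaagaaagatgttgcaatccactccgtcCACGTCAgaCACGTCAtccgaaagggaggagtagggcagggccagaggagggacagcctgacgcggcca
Sp110, chr1:85598761-85599060, minus strand, 1 match to GAAAGTG on the reverse strand: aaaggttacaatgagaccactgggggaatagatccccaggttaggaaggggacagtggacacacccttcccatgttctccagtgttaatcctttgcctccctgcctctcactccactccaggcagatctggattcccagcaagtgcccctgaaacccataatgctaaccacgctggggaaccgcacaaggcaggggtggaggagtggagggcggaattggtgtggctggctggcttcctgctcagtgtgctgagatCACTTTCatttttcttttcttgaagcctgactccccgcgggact
Stat2, chr10:128270248-128270547, plus strand, 1 match to the ISRE core on the reverse strand: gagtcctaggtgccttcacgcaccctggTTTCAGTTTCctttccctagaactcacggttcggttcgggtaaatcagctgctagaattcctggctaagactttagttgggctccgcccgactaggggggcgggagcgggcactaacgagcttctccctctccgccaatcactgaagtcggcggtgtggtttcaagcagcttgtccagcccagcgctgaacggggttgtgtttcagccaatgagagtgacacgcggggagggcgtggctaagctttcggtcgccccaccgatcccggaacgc
Ifit1, chr19:34640639-34640938, plus strand, 2 matches to the ISRE core of which 1 overlaps GAAAGTG: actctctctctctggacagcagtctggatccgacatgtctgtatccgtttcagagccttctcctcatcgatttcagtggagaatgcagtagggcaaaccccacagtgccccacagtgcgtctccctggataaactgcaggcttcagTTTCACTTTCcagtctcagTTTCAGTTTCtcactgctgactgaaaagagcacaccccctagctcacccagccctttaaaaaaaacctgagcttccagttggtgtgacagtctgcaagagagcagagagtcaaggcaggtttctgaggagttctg
Ifit3, chr19:34583279-34583578, plus strand, 2 matches to the ISRE core of which 1 overlaps GAAAGTG: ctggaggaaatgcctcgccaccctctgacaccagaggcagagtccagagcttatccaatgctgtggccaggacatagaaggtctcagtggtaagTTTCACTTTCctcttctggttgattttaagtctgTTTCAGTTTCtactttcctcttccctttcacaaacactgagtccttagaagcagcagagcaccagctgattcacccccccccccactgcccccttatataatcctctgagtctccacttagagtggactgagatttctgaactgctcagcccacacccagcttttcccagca
Isg15, chr4:156200769-156201068, minus strand, 3 overlapping matches to the ISRE core on the forward strand: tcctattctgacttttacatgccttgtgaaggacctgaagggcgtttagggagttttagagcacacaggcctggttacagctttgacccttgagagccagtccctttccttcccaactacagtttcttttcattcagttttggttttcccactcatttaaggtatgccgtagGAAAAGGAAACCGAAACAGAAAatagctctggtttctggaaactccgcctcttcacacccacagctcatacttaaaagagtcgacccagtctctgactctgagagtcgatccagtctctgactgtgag
The matches of Isg20 began 19 and 10 bases before the start site of the window shown, which lies downstream of the first annotated base of the gene. The single match of Sp110 began at base 7 after the start site of its window. The other 2 windows of Isg20, the other window of Sp110 and the window of Irf7 held none of the 3 motifs.

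Wild-type plasma cells expressed the 33 genes over a wide range. Per length, in the deposited log2 FPKM (counts scaled by gene length and library size), the highest were Bst2, a tetherin that holds budding virus at the membrane, at 7.87 ± 0.49 (SD over 4 wild-type libraries), Isg20, an RNA exonuclease, at 7.36 ± 0.32, Zbp1, a sensor of Z-form nucleic acid, at 5.99 ± 0.10, and Sp100, a nuclear body protein, at 5.53 ± 0.16. The lowest were the antiviral GTPases Mx1 (-1.13 ± 0.57) and Mx2 (-3.02 ± 1.33), the RNA-binding protein Ifit3 (-1.61 ± 2.74) and the oligoadenylate synthetase Oas2 (-2.57 ± 1.82). In this order of 33 levels, the wild-type ranges of neighbouring genes were apart at only 4 places, between Isg20 and Zbp1, Zbp1 and Sp100, Sp100 and Ddx58, and Eif2ak2 and Dhx58. All other neighbours overlapped. The gap between Eif2ak2 and Dhx58, of 1.39 on the log2 scale, separated the 17 highest genes from the rest. Ifit1, Ifit3, Mx1, Oas2, Usp18 and Rsad2 lay below that gap, and Isg15 (3.73) and Irf7 (4.05) above it.

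**Figure D1:**
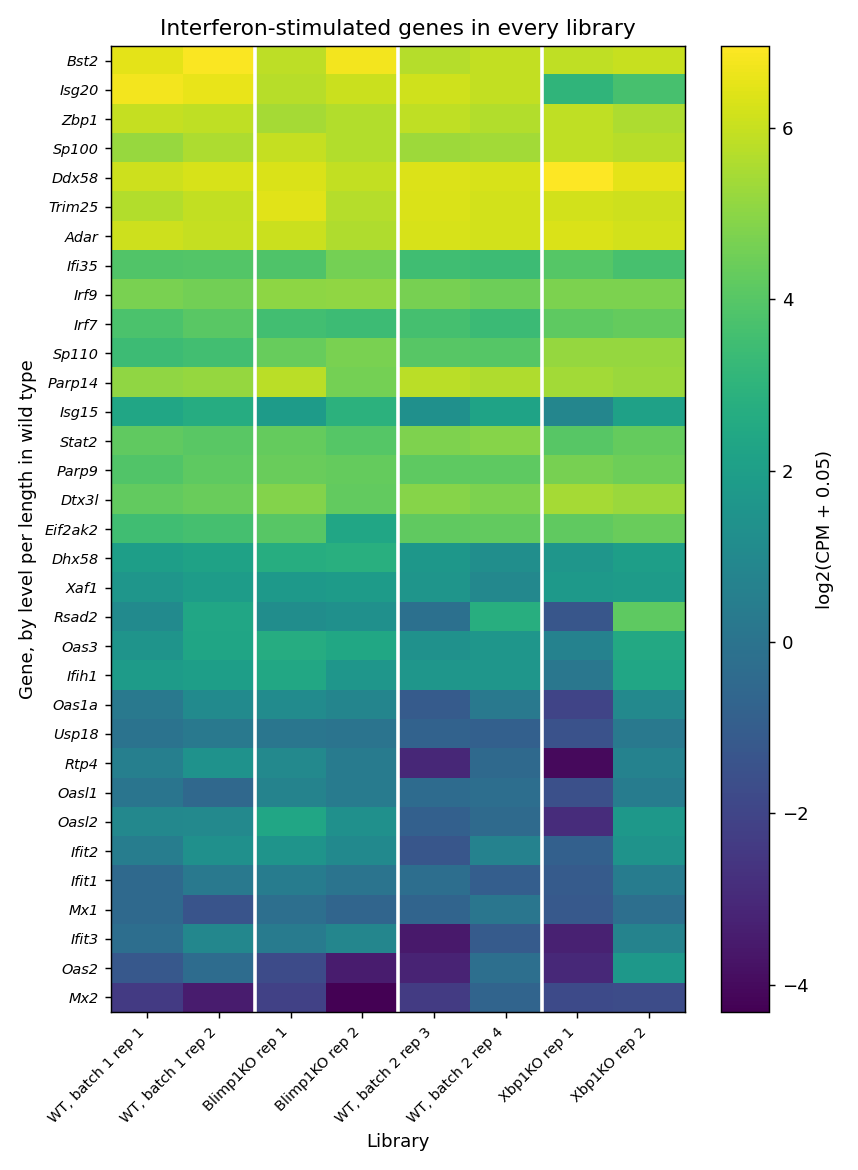
Level of each of the 33 genes (rows, ordered by wild-type level per length) in each of the 8 libraries (columns), as log2 of CPM plus 0.05. Among the upper 17 rows, Isg20 is lowest and Sp110 highest in both Xbp1-/- libraries, and Eif2ak2 is lowest in Blimp1-/- replicate 2. Most of the lower rows are darkest in wild-type replicate 3 or Xbp1-/- replicate 1 of batch 2, but Dhx58, Xaf1, Mx1, Oas2 and Mx2 are darkest in other libraries.

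Few of the 33 genes were called in either knockout, and a gene not called is not shown to be unchanged. Estimates were above 0 for 20 of the 33 in Blimp1-/-, against 7350 of all 15073 genes tested. In Xbp1-/- they were above 0 for 25 of the 33, against 8416 of all genes. For low genes such as Oas1a, Ifih1 and Oasl1 that sign rested on replicate 2. Xbp1-/- replicate 1 lay below both controls for these genes and replicate 2 above both. In Blimp1-/-, 1 of the 33 genes was called higher (Sp110) and none lower by edgeR's quasi-likelihood test at a Benjamini-Hochberg adjusted p below 0.05, that is 3.03% of the genes against 0.862% of all 15073 genes tested (0.577% higher and 0.285% lower). By unadjusted p under 0.05 the count was 5 of 33, against 13.9% of all genes, and DESeq2 called 1 of 33, against 5.72%. The median log2 fold change of the 33 was 0.20, against -0.0061 for all genes. In Xbp1-/-, 2 were called higher (Sp110 and Irf7) and 1 lower (Isg20), that is 9.09% against 7.7% of all genes (2.63% higher and 5.06% lower), and the median was 0.39 against 0.082. By unadjusted p under 0.05 the count was 7, against 23.6% of all genes, and DESeq2 called 4, against 14.7%. That median depended on the method and on 1 library. With all libraries kept it was -0.018 by limma-voom and 0.12 by limma on log2 FPKM. By edgeR it was -0.52 without Xbp1-/- replicate 2, -0.0034 without the marker-rich pair and 0.51 without the marker-poor pair. Without the marker-rich pair the calls among the 33 were 0 in Blimp1-/- and 1 in Xbp1-/- (Isg20), and without the marker-poor pair 0 in both. Fits without either pair, or without 1 wild-type library, called fewer of all genes tested. A call lost there, here or below, therefore does not by itself show that a gene depends on those libraries. Both Blimp1-/- libraries lay above both wild-type libraries for 8 of the 33 genes (20.9% of all genes did) and below for 4 (22.1%). For Xbp1-/- the counts were 9 above (31.8% of all genes) and 4 below (25.8%).

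**Figure D2:**
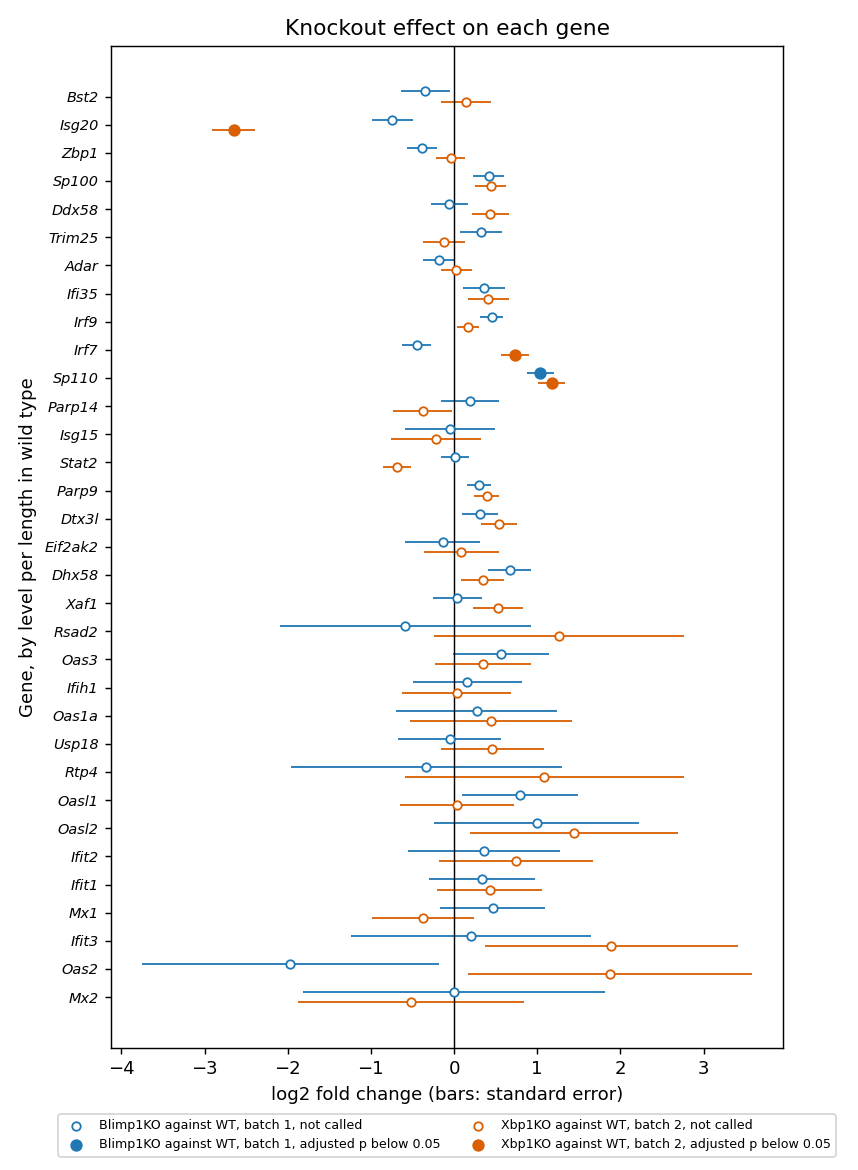
Log2 fold change of each of the 33 genes with its standard error, for Blimp1-/- (blue) and Xbp1-/- (orange) against wild type of the same batch, with filled points for adjusted p below 0.05. The filled points are Sp110 in both comparisons and Irf7 and Isg20 in Xbp1-/-, and the bars widen towards the low-level genes at the foot of the plot.

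Among the 5 signalling and feedback genes, Irf7, the factor that amplifies type I interferon production, was called higher in Xbp1-/-. Its level was 12.3 and 10.3 CPM in batch 2 wild type and 17.96 and 19.6 CPM in Xbp1-/-. The groups did not overlap, and the log2 fold change was 0.73 (standard error 0.17, adjusted p = 0.0468), a 1.66-fold rise. In batch 1, Irf7 read 13.7 and 16.8 CPM in wild type and 11.8 and 10.5 CPM in Blimp1-/-. Here the knockout libraries were the lower ones, with a log2 fold change of -0.45 that did not pass (standard error 0.17, adjusted p = 0.300). The difference between both effects was -1.18 (standard error 0.24, adjusted p = 0.0665). The Xbp1-/- call was lost with the replicate block (adjusted p = 0.0677), in batch 2 alone (0.0518), with DESeq2 size factors in edgeR (0.0504), with immunoglobulin genes removed (0.0653) and against wild type of both batches pooled (0.172). It was also lost without any single library of batch 2 or of batch 1 wild type (adjusted p between 0.0974 and 0.273) and without the marker-rich pair (0.492) or the marker-poor pair (0.227).

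Stat2 and Irf9, both subunits of ISGF3, did not pass in either comparison by edgeR. Stat2 read 27.4 and 30.1 CPM in batch 2 wild type and 16.05 and 19.7 CPM in Xbp1-/-. Both knockout libraries were lower, at a log2 fold change of -0.69 (standard error 0.17, adjusted p = 0.0562). This effect passed by DESeq2 (adjusted p = 0.0126), limma-voom (0.0488), without the filter on low counts (0.0396), with immunoglobulin genes removed (0.0433) and without either Blimp1-/- library (0.0202 and 0.0222), and over all alternatives its adjusted p reached 0.445. Batch 1 wild type (18.3 and 16.9 CPM) and Blimp1-/- (19.5 and 15.9 CPM) overlapped, at about the Xbp1-/- level. Irf9 read 25.5 and 23.2 CPM in batch 1 wild type and 32.4 and 34.3 CPM in Blimp1-/-, with a log2 fold change of 0.45 (standard error 0.14, adjusted p = 0.201), and stayed between 21.9 and 26.5 CPM in batch 2. Isg15, a ubiquitin-like protein that is conjugated to other proteins, and Usp18, the protease that removes it and also blocks the receptor, read 1.77 to 7.49 CPM and 0.310 to 1.13 CPM over the 8 libraries, and neither passed a test.

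Of the 12 nucleic acid sensors and RNA enzymes, Isg20 was the one called. Isg20 (chr7:78913424-78920396, plus strand, GRCm38) encodes an exonuclease that degrades single-stranded RNA. It read 71.7 and 59.8 CPM in batch 2 wild type and 8.19 and 12.8 CPM in Xbp1-/-. Both knockout libraries were far below both controls, at a log2 fold change of -2.65 (standard error 0.26, adjusted p = 0.00326), that is 6.28-fold lower. This call held in all 8 fits that left out 1 library (adjusted p up to 0.0282) and without the marker-rich pair (log2 fold change -3.14, adjusted p = 0.0441), and was lost without the marker-poor pair (-2.24, adjusted p = 0.0896). In batch 1, Isg20 read 107 and 96.1 CPM in wild type and 54.1 and 67.2 CPM in Blimp1-/-. These groups did not overlap either, but the log2 fold change of -0.74 did not pass (standard error 0.24, adjusted p = 0.239). The difference between the knockout effects was 1.91 on the log2 scale (standard error 0.35, adjusted p = 0.0515), just short of the threshold. It passed by DESeq2 (adjusted p = 2.7e-05), limma-voom (0.0464), limma on log2 FPKM (0.0366), with DESeq2 size factors in edgeR (0.0489), without the filter on low counts (0.00108), with immunoglobulin genes removed (0.0416) and without Blimp1-/- replicate 1 (0.0285) or Xbp1-/- replicate 2 (0.0472). It did not pass with the replicate block (0.076), without any single wild-type library (0.125 to 0.238), without Blimp1-/- replicate 2 (0.0539) or Xbp1-/- replicate 1 (0.0934), or without the marker-rich pair (0.114) or the marker-poor pair (0.242).

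**Figure D3:**
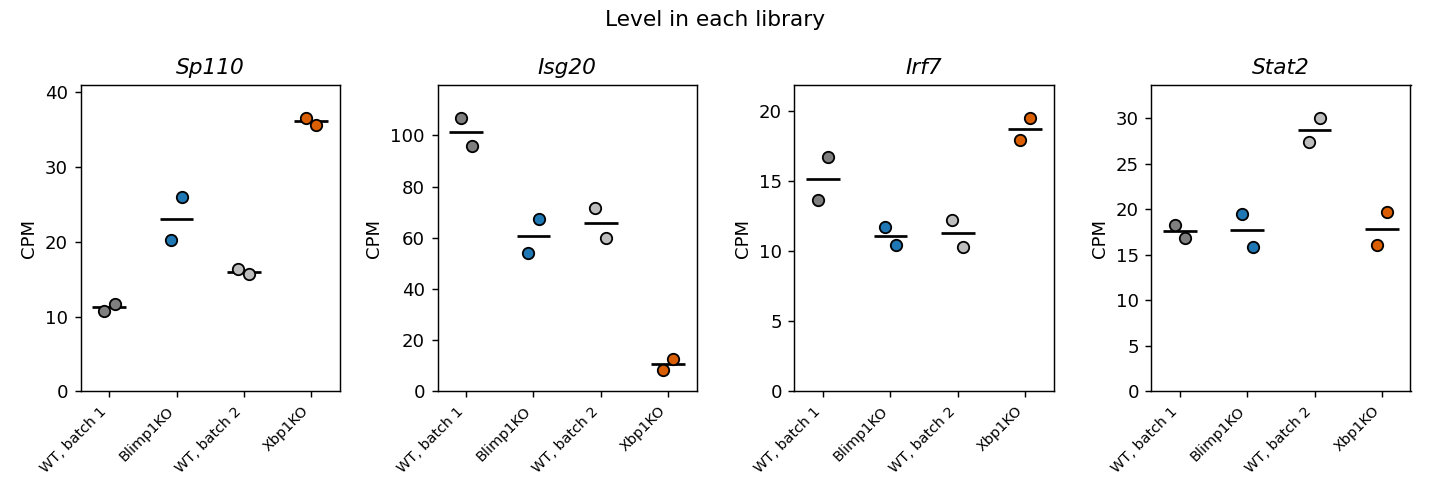
CPM of Sp110, Isg20, Irf7 and Stat2 in each library (points) with the mean of each group of 2 (lines), on linear axes that start at 0. Both Xbp1-/- libraries lie at 8.19 and 12.8 CPM for Isg20 while every other library lies at 54.1 CPM or more, and both knockouts lie above their own wild type for Sp110.

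The other 11 genes of this class were not called in either knockout. The cytosolic RNA sensor Ddx58 (RIG-I) stood between 60.1 and 124 CPM, the RNA-editing enzyme Adar between 49.7 and 80.2 CPM and Zbp1 between 43.1 and 62.7 CPM over the 8 libraries. Dhx58, a regulator of RIG-I, read 3.90 and 4.49 CPM in batch 1 wild type against 6.39 and 6.95 CPM in Blimp1-/-. The groups did not overlap, and the log2 fold change of 0.67 did not pass (standard error 0.26, adjusted p = 0.319). The kinase Eif2ak2 (PKR), which halts translation on sensing double-stranded RNA, ran from 11.2 to 20.7 CPM in 7 libraries and read 5.12 CPM in Blimp1-/- replicate 2, so the pair of that group spread more than the groups did. The oligoadenylate synthetases and their relatives Oas1a, Oas2, Oas3, Oasl1 and Oasl2, which activate RNase L or sense nucleic acid, and Ifih1 (MDA5) all stayed at or below 6.21 CPM. Adar shares 1365 of 8118 exonic bases with Chrnb2 on the opposite strand in the GENCODE M21 annotation, and since the strand setting of the counting is not given in the sources used here, its reads and those of Chrnb2, at 0.776 to 2.07 CPM, cannot be fully told apart.

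Sp110, a nuclear body protein linked to defence against intracellular bacteria, was higher in both knockouts. It read 10.7 and 11.7 CPM in batch 1 wild type and 20.2 and 26.0 CPM in Blimp1-/-, then 16.4 and 15.7 CPM in batch 2 wild type and 36.6 and 35.7 CPM in Xbp1-/-. In each batch both knockout libraries stood above both controls. The log2 fold change was 1.04 in Blimp1-/- (standard error 0.16, adjusted p = 0.0428, 2.05-fold) and 1.17 in Xbp1-/- (standard error 0.16, adjusted p = 0.00849, 2.26-fold). The effects differed by -0.13 (standard error 0.22, adjusted p = 0.849). The Blimp1-/- call was lost by limma-voom (adjusted p = 0.0683), in batch 1 alone (0.148), against pooled wild type (0.138), without either batch 1 wild-type library (0.374 and 0.304), without any single library of batch 2 (0.061 to 0.121) and without the marker-rich pair (0.149) or the marker-poor pair (0.166), but not without a Blimp1-/- library (0.0162 and 0.0426). The Xbp1-/- call was lost without wild-type replicate 3 or 4 (0.0746 and 0.0792), without Xbp1-/- replicate 1 (0.0625) and without the marker-rich pair (0.214) or the marker-poor pair (0.179), with log2 fold changes of 1.08 to 1.22 in all 8 fits that left out 1 library.

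Markers of B cells and plasmacytoid dendritic cells also differed between the groups. The 12 B cell stage markers summed to 6088 and 5396 CPM in batch 1 wild type, 10300.2 and 14294.5 CPM in Blimp1-/-, 3982 and 3665 CPM in batch 2 wild type and 3025 and 2696 CPM in Xbp1-/-, so the sum was higher in Blimp1-/- and lower in Xbp1-/-. Most of it was Cd74, the invariant chain of MHC class II, at 3500.04 and 3241 CPM in batch 2 wild type and 2255 and 1958 CPM in Xbp1-/-. Gene by gene, 10 of the 12 had estimates above 0 in Xbp1-/- (median log2 fold change 0.41, 1 called higher and none lower) and 11 of the 12 in Blimp1-/- (median 1.26, 1 called higher and none lower). The 14 plasmacytoid dendritic cell markers, of which Ly6d gave the most at 232 to 1313 CPM, summed to 871 and 956 CPM, 1438 and 2121 CPM, 661 and 652 CPM, and 1399.8 and 1481 CPM in the same order, with both knockout sums above both control sums in each batch. In that list 1 gene was called higher in Blimp1-/- (Spib, which B cells also express), and in Xbp1-/- 3 were called higher and 2 lower, while its defining marker Siglech stood at 0.0481 to 3.06 CPM. For that list the share called was 7.69% in Blimp1-/- and 38.5% in Xbp1-/-. For the B cell list it was 8.33% in both, against 0.862% and 7.7% of all genes tested. The part of these markers in the levels of Sp110 and Irf7 was not tested.

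Sp110 lies in a cluster of related genes on chromosome 1 (Sp110 at chr1:85576899-85598817, Sp140 at chr1:85600378-85645037, Sp100 at chr1:85649988-85709998 and A630001G21Rik at chr1:85717083-85778643, GRCm38). No exonic base of Sp110 is shared with another counted gene, but reads from similar stretches of these relatives could be split by the mapping, so the value of any one of them is less certain. The neighbours Sp140 and A630001G21Rik, picked after their values were seen, were also called higher in Xbp1-/-, with log2 fold changes of 0.95 (standard error 0.18, adjusted p = 0.0245) and 1.24 (standard error 0.21, adjusted p = 0.0192). In Blimp1-/- they had 0.51 (adjusted p = 0.264) and 0.09 (adjusted p = 0.927). Sp100, also a nuclear body protein, read 36.7 and 47.2 CPM in batch 1 wild type against 61.9 and 50.1 CPM in Blimp1-/-, and 40.1 and 42.1 CPM in batch 2 wild type against 58.6 and 52.9 CPM in Xbp1-/-. Both knockouts stood above their controls, with log2 fold changes of 0.42 (adjusted p = 0.384) and 0.44 (adjusted p = 0.206) that did not pass. Ifi35 and the cell death factor Xaf1 were not called, at 10.5 to 24.4 CPM and 1.89 to 3.72 CPM.

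The 4 ubiquitin and ADP-ribose enzymes, Trim25, which activates RIG-I by ubiquitination, Dtx3l and its partner Parp9, and Parp14, were not called in either knockout. Dtx3l read 29.6 and 26.4 CPM in batch 2 wild type and 43.4 and 38.0 CPM in Xbp1-/-, a log2 fold change of 0.54 (standard error 0.22, adjusted p = 0.194). Parp9 read 18.04 and 17.7 CPM there and 24.8 and 22.1 CPM in Xbp1-/-, a log2 fold change of 0.39 (standard error 0.15, adjusted p = 0.162). Both pairs were higher without overlap. Dtx3l and Parp9 lie head to head and share 458 exonic bases, so part of their reads may be counted for either or neither. In Blimp1-/-, replicate 1 was the higher library for all 4 genes, by the widest margin for Parp14 (55.8 against 24.0 CPM).

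The 8 antiviral effectors were not called in either knockout, and all but Bst2 were scarce. Bst2, which also marks plasmacytoid dendritic cells, ran from 52.5 to 118 CPM. Rsad2 (viperin) read 2.04 and 5.06 CPM in batch 1 wild type, 2.25 and 2.48 CPM in Blimp1-/-, 0.845 and 6.75 CPM in batch 2 wild type, and 0.358 and 17.8 CPM in Xbp1-/-. Its spread within the Xbp1-/- pair, 49.7-fold, was wider than any difference between its group means. Ifit3 read 0.0342 and 0.418 CPM in batch 2 wild type and 0.0535 and 1.60 CPM in Xbp1-/-, against 0.794 to 1.83 CPM in the 4 libraries of batch 1. Ifit1, Ifit2, Mx1, Mx2 and Rtp4 all stayed at or below 2.83 CPM.

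This spread between replicates was shared across the low genes of the set. Over the 17 genes that averaged under 10 CPM (a division chosen after the values were seen), Xbp1-/- replicate 2 exceeded replicate 1 by a median of 4.07-fold, with 13 of 16 genes that had enough counts for a ratio over 2-fold. Wild-type replicate 4 exceeded replicate 3 by a median of 1.82-fold, with 7 of 17 over 2-fold. In batch 1 the median ratios of replicate 2 to replicate 1 were 1.23 in wild type and 0.785 in Blimp1-/-. The 16 genes at 10 CPM or more showed no such shift in batch 2, with ratios of 0.727 to 1.56 in Xbp1-/- and 0.834 to 1.14 in wild type. In batch 1 their ratios ran from 0.898 to 1.30 in wild type. They spread more widely in Blimp1-/-, from 0.315 (Eif2ak2) and 0.430 (Parp14) to 1.85 (Bst2).

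In batch 2, markers of other cells were higher in the same library of each pair as these low genes. By summed level in Blimp1-/-, the erythroid and megakaryocyte markers rose from replicate 1 to replicate 2 while the low genes fell. The neutrophil, monocyte and macrophage sum fell there too, though 9 of the 14 markers were higher in replicate 2. In batch 1 wild type both marker sums and the low genes rose. The summed level of 14 neutrophil, monocyte and macrophage markers was 31.9 times higher in Xbp1-/- replicate 2 than in replicate 1 (13 of 14 markers higher) and 20.6 times higher in wild-type replicate 4 than in replicate 3 (14 of 14). It was 449 and 580 CPM in batch 1 wild type and 684 and 419 CPM in Blimp1-/-, and none of the 14 was at 0 in any library. The 11 erythroid and megakaryocyte markers found in the table summed to 10.004 and 1019 CPM in Xbp1-/-, 33.9 and 319 CPM in batch 2 wild type, 33.4 and 164 CPM in batch 1 wild type and 33.5 and 164 CPM in Blimp1-/-. For 12 T and NK cell markers the sums were 10.8 and 18.9 CPM in Xbp1-/- and 8.60 and 11.9 CPM in batch 2 wild type. They were 18.9 and 31.1 CPM in batch 1 wild type and 21.3 and 22.2 CPM in Blimp1-/-. The 17 low interferon-stimulated genes summed to 13.6 and 59.2 CPM in Xbp1-/- and 19.2 and 30.2 CPM in batch 2 wild type, against 30.8 and 43.3 CPM in batch 1 wild type and 45.5 and 41.8 CPM in Blimp1-/-. The 16 higher genes summed to 615 to 704 CPM in all 8 libraries. The part of these markers in the levels of the low genes was not tested. In sorted cells read in bulk, more cells of another type and more RNA per cell cannot be told apart.

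**Figure D4:**
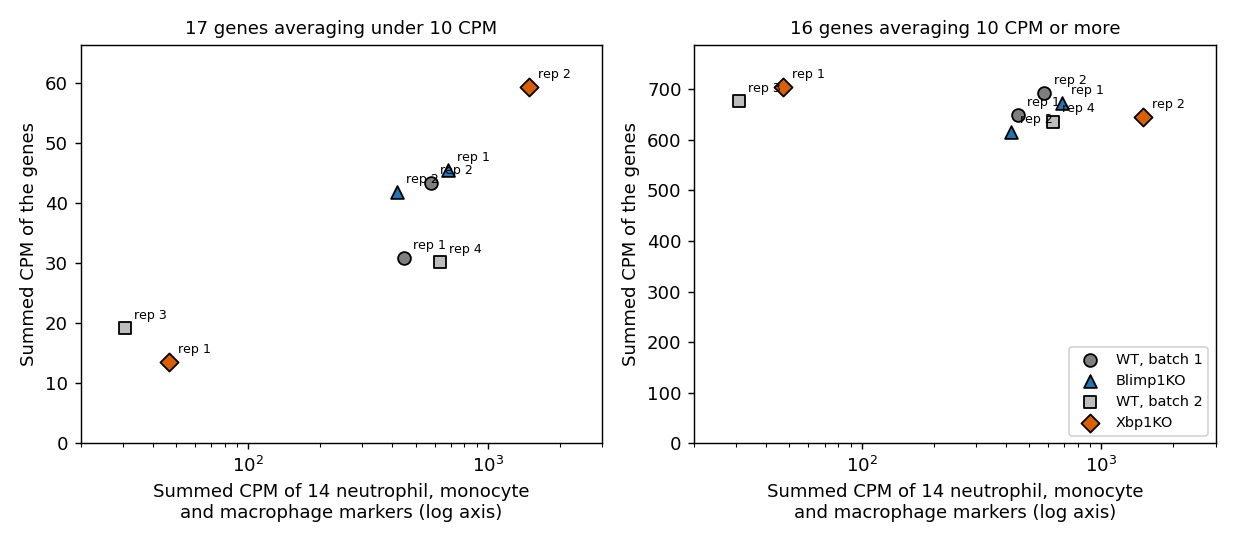
Summed CPM of the 17 low genes (left) and the 16 higher genes (right) in each library, against the summed CPM of 14 neutrophil, monocyte and macrophage markers on a log axis. On the left, wild-type replicate 3 and Xbp1-/- replicate 1 have the lowest sums on both axes and Xbp1-/- replicate 2 the highest, while on the right all libraries lie between 615 and 704 CPM.

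Interferon transcripts themselves were next to absent. Of 10 interferon genes listed, between 7 and 9 had no count in each library, and all 10 together had 2 to 4 counts per library. A count of 0 allows a level of up to 0.0160 to 0.0680 CPM (3 counts, counting error only). Ifng had 12 counts over the 8 libraries, and Ifnb1 and Ifnk 5 each. The 9 receptor subunits and Janus kinases were all expressed and tested, and none was called in either knockout. Ifnar2, a chain of the type I interferon receptor, read 88.0 and 93.7 CPM in batch 1 wild type and 47.8 and 62.1 CPM in Blimp1-/- (log2 fold change -0.72, standard error 0.18, adjusted p = 0.128). It read 55.1 and 49.3 CPM in batch 2 wild type and 85.7 and 84.0 CPM in Xbp1-/- (0.70, standard error 0.18, adjusted p = 0.0592). The knockout pairs thus lay on opposite sides of their controls.

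Among 7 further transcription factors of the pathway, Irf8 was called lower in Xbp1-/- (46.2 and 41.8 CPM in wild type, 22.4 and 26.2 CPM in the knockout, log2 fold change -0.86, adjusted p = 0.0483), and none was called in Blimp1-/-. Of 15 innate sensors and adaptors, Ikbke, a kinase that activates Irf3 and Irf7, was called higher in Blimp1-/- (7.91 and 7.33 CPM against 20.1 and 16.2 CPM, log2 fold change 1.25, adjusted p = 0.0382). In Xbp1-/- 3 of the 15 were called lower: the adaptors Ticam1 (TRIF, -1.62, adjusted p = 0.00308) and Tmem173 (STING, -1.05, adjusted p = 0.0244) and the kinase Irak1 (-1.22, adjusted p = 0.0158). Of 11 negative regulators, the phosphatase Ptpn6 was called lower in Xbp1-/- (-0.86, adjusted p = 0.0323) and none was called in Blimp1-/-. In Xbp1-/- the share called was 14.3% for the factors, 20% for the sensors and 9.09% for the regulators, against 7.7% of all genes. In Blimp1-/- it was 6.67% for the sensors, against 0.862% of all genes.

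Of 14 interferon-inducible GTPases, which attack the vacuoles of intracellular microbes, Gbp2 was called higher in Blimp1-/- (7.37 and 7.71 CPM against 19.9 and 15.4 CPM, log2 fold change 1.23, adjusted p = 0.0382). In Xbp1-/- none was called higher and 3 were called lower: Gbp5 (-1.38, adjusted p = 0.00923), Gbp3 (-0.90, adjusted p = 0.0375) and Igtp (-0.73, adjusted p = 0.0459). Of 46 other interferon-stimulated genes tested (47 listed), Trim34a was called higher in Blimp1-/- (1.61, adjusted p = 0.0352). In Xbp1-/- Epsti1 (1.44, adjusted p = 0.0191), Tor3a (0.98, adjusted p = 0.0262), Ifitm1 (3.38, adjusted p = 0.0308) and Ifitm3 (1.33, adjusted p = 0.0413) were called higher, and Tnfsf10, the death ligand TRAIL, lower (-1.15, adjusted p = 0.0206). The medians of these 46 were 0.39 in Blimp1-/- and 0.42 in Xbp1-/-, against -0.0061 and 0.082 for all genes. The share called in Blimp1-/- was 7.14% of the GTPases and 2.17% of the 46, against 0.862% of all genes. In Xbp1-/- it was 21.4% and 10.9%, against 7.7% of all genes. Of these calls outside the 33, Ticam1 in Xbp1-/- was kept in all 8 fits that left out 1 library (adjusted p up to 0.0276). Each other call was lost in at least 1 of them. Without the marker-rich pair and without the marker-poor pair each call, Ticam1 included, was lost. Those 2 fits called few or none of all genes tested, so these losses do not single out these genes.

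Between the knockouts, none of the 33 genes was called for a difference of effects by edgeR, against 1.68% of all genes, with 3 at an unadjusted p under 0.05 (Isg20, Irf7 and Stat2), against 15.9% of all genes. DESeq2 called 2, against 7.83% of all genes, and limma-voom 1, against 1.64%. Between the wild-type pairs of batch 2 and batch 1, none was called either, against 2.81% of all genes (1.96% higher and 0.843% lower in batch 2), with 6 at an unadjusted p under 0.05, against 27.1% of all genes, and 2 called by DESeq2, against 13%. Their median log2 difference was -0.33, lower in batch 2, against -0.021 for all genes. Both batch 2 libraries lay below both batch 1 libraries for 14 of the 33 genes (35.3% of all genes did) and above for 9 (32.3%). Some of the 33 were called when Blimp1-/- replicate 1 or 2 was left out, fits in which many more of all genes were called as well. These knockout libraries enter this contrast only through the shared spread and scaling.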

How the data were processed

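RNA-seq of 8 libraries was analysed from 1 table of gene counts, which the authors deposited unnormalized with gene lengths (bases), and from per-library files that the authors deposited as log2 FPKM. Subread, featureCounts, limma and the builds GRCm38 and mm10 are named in the submitters' processing notes; versions and the strand setting of counting are not given in the sources used here. Genes are identified in the count table by Entrez ID; symbols came from the deposited log2 FPKM files and, for the rest, a RefSeq gene table, and 1599 of 27179 genes had none.

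Counts were tested with edgeR 4.0.16 in R 4.3.3 (filterByExpr with a minimum count of 10, TMM, quasi-likelihood F test, all 4 groups of 2 libraries in 1 fit, Benjamini-Hochberg adjustment over 15073 genes, threshold 0.05). Each contrast was a knockout minus wild type of its own batch, their difference, or wild type of batch 2 minus batch 1. Standard errors were derived from the fitted change and its F statistic. The fit was tested on simulated counts. DESeq2 1.42.0, limma 3.58.1 (voom, and log2 FPKM), other scalings, no filter, each batch alone, pooled wild type, a replicate block and leaving out each library were alternatives. Leaving out the batch 2 libraries with more, or those with less, myeloid marker RNA (1 of each group) was added after the data were seen. In fits that leave 1 library in a group, it is assumed to vary like the others.

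The members and all gene lists were chosen with earlier results of these data known. Genes named are members called or with the smallest p in a contrast, the highest and lowest in wild type, and called genes of the other lists. The deposited log2 FPKM of replicates 1 and 2 in batch 1 wild type and in Blimp1-/- each matched the count column of the other replicate, so FPKM were used only for levels over wild type and in the limma alternative, a fit of group means in which the order within a group does not enter. Replicates are described by the submitters as biological. Of the related lists, 1 gene is not reported here.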

Additional observations from a re-analysis of the deposited data

Results flagged for a closer look

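None of the 33 genes was picked out by the test of the difference between the knockout effects, but 6 genes of the related lists were (edgeR, Blimp1-/- effect minus Xbp1-/- effect, log2). Of all genes tested, 1.68% were. The share was 11.1% for receptors and kinases, 14.3% for factors and 14.3% for GTPases. It was 6.67% for sensors, 2.17% for other genes and 0% for regulators. Ifnar2, of the type I interferon receptor, differed by -1.43 (adjusted p = 0.0447), with effects of -0.72 and 0.70. Irf5, a factor downstream of Toll-like receptors, differed by 1.22 (adjusted p = 0.0353), and Ticam1 by 1.76 (adjusted p = 0.018). The GTPases Gbp2 and Gbp5 differed by 1.54 (adjusted p = 0.0389) and 1.59 (adjusted p = 0.0408), and Trim34a by 1.83 (adjusted p = 0.0408). Each of the 6 fell short of the threshold without any single wild-type or Xbp1-/- library, and Ifnar2 also without Blimp1-/- replicate 1, with adjusted p up to 0.238.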

How the results depend on the processing

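With 2 libraries per group the counts of called genes moved with the fit, while no called change of a named gene turned direction under any alternative run. Over all genes, against 130 in Blimp1-/-, 1160 in Xbp1-/-, 253 for their difference and 423 between wild-type batches, DESeq2 called 862, 2220, 1180 and 1960, and fits without the filter on low counts called 517 in Blimp1-/-, 763 for the difference and 1662 between batches. Limma-voom called 83 in Blimp1-/- and 204 between batches, libraries of batch 1 alone 20 and pooled wild type 269 in Blimp1-/-. Leaving out the marker-rich pair of batch 2 gave 31, 59, 2 and 32 and leaving out the marker-poor pair 27, 0, 0 and 9, both chosen after seeing the data. Leaving out 1 library gave 0 to 688 in Blimp1-/-, 225 to 2123 in Xbp1-/-, 3 to 598 for the difference and 14 to 2963 between batches.

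Of the 33 genes, 0 were called in Blimp1-/- by limma-voom, in batch 1 alone, with pooled wild type or without either pair. The fit without the marker-rich pair left 1 in Xbp1-/- and that without the marker-poor pair 0. For the difference, DESeq2 and the unfiltered fit called 2, and DESeq2 size factors in edgeR, removal of immunoglobulin genes, limma-voom and limma on log2 FPKM called 1. DESeq2 and the unfiltered fit called 2 between batches. Leaving out 1 library gave 0 to 2 in Blimp1-/-, 1 to 5 in Xbp1-/-, 0 to 2 for the difference and 0 to 6 between batches. The median of the 33 in Xbp1-/- was -0.018 by limma-voom and -0.0034 without the marker-rich pair, where the median difference was 0.43; without 1 library they ran from -0.52 to 0.39 and from -0.21 to 0.55. The cause was not tested. With GAAA, any 2 bases and GAAACT as the motif, 5 genes matched.

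Calls in the related lists were few and moved likewise. In Blimp1-/-, DESeq2 called 2 receptors and kinases, 1 factor, 3 sensors, 2 regulators and 4 other genes, the unfiltered fit 2 sensors, 1 regulator and 2 other genes, pooled wild type 1 factor, 2 sensors, 1 regulator and 0 other genes, and limma on log2 FPKM 1 factor. Limma-voom called 0 sensors, 0 GTPases and 0 other genes, and batch 1 alone and the fits without either pair 0 GTPases and 0 other genes. In Xbp1-/-, DESeq2 called 1 receptor, 2 factors, 5 sensors, 2 regulators, 5 GTPases and 12 other genes, batch 2 alone 1 receptor, 2 factors, 6 GTPases and 8 other genes, limma on log2 FPKM 1 receptor, 2 factors and 8 other genes, and the unfiltered fit 6 GTPases and 9 other genes. Without either pair 0 were called in every list of either the Xbp1-/- effect or the difference. For the difference, DESeq2 called 2 factors, 4 sensors, 2 regulators and 2 other genes, the unfiltered fit 4 sensors, 1 regulator and 2 other genes, DESeq2 size factors, limma-voom and limma on log2 FPKM 2 sensors, and removal of immunoglobulin genes 0 receptors, 3 sensors and 1 regulator. Leaving out 1 library gave, in Blimp1-/-, 0 to 2 receptors, 0 to 1 factor, 0 to 2 sensors, 0 to 2 GTPases and 0 to 2 other genes. In Xbp1-/- it gave 0 to 1 receptor, 0 to 2 factors, 1 to 4 sensors, 0 to 1 regulator, 0 to 5 GTPases and 0 to 9 other genes, and for the difference 0 to 1 receptor, 0 to 1 factor, 0 to 3 sensors, 0 to 3 GTPases and 0 to 3 other genes. Xbp1 itself passed by DESeq2 in both knockouts (-0.96 and -0.86) and, with immunoglobulin genes removed, in Xbp1-/- (-0.90).

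Replicate numbers were shared within batch 1, but no label ties them to a litter or day (correlation of deviations 0.218 over 2 pairs). With the replicate block, 1 of the 33 genes was called in Blimp1-/- and 2 in Xbp1-/- (Irf7 was lost, adjusted p = 0.0677), and 189 genes between wild-type batches. The block left 0 sensors, 0 GTPases and 0 other genes in Blimp1-/-, 0 factors in Xbp1-/-, and 0 receptors, 0 factors, 0 GTPases and 0 other genes for the difference. For the 17 genes under 10 CPM the standard errors of the knockout effects reached 1.82 on the log2 scale, so for some of them a change of several-fold would not have been called.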
